A study of Rattus norvegicus with 3 samples.

Results

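The measurements cover 9 genes that make, sense or break down small signals with which cells act on immune cells. They are the prostaglandin genes Ptgs1, Ptgs2, Ptges, Ptgis, Ptger2 and Ptger4, and the enzyme genes Nos2, Ido1 and Nt5e. They were chosen by name, and their probes were found by matching the RefSeq accessions of the array to rat symbols, which named 13301 genes in all. Each of the 9 genes had 1 probe named in this way, so no second named probe was at hand to check a value. Of 40816 probes used, 16745 were named, and the others were not searched for these genes. The arrays were hybridized with RNA of cultured mesenchymal stem cells (MSCs), of the osteosarcoma line COS1NR and of the malignant fibrous histiocytoma (MFH) line MFH1NR. All came from F344 rats. The MSCs were isolated from femur bone marrow by growth on plastic and were not sorted by surface markers, per the study. Both sarcoma lines arose, per the study's methods, from tumors induced with 4-hydroxy quinolone 1-oxide, carry a p53 mutation and were grown in less serum than the MSCs. Neither the labels nor the methods name a treatment of the cells. With 1 array per cell type there were no replicates, so no difference was tested against the spread between cultures.

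Prostaglandins are made from arachidonic acid, which phospholipase A2 enzymes release from membranes. The cyclooxygenases COX-1 (Ptgs1, present at rest in many tissues) and COX-2 (Ptgs2, induced by cytokines and growth factors) turn it into prostaglandin H2. Terminal synthases then make prostaglandin E2 (Ptges, a microsomal synthase) or prostacyclin (Ptgis), and the receptors EP2 (Ptger2) and EP4 (Ptger4) answer prostaglandin E2 by raising cyclic AMP. Bone marrow MSCs are known to restrain T cells and macrophages through prostaglandin E2, through nitric oxide made by inducible nitric oxide synthase (Nos2), through tryptophan breakdown by indoleamine dioxygenase (Ido1) and through adenosine made by CD73 (Nt5e).

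The promoters of the 3 genes that lead from arachidonic acid to prostaglandin E2 are shown because their levels differed in a simple way. Ptgs1 and Ptges lay within 2-fold of MSCs in both sarcoma lines, and Ptgs2 did not. Each sequence holds the 250 bases before the start of the gene in RefSeq on the GRCr8 assembly, on the gene's own strand. Capitals mark matches to the TATA box (TATAAA), the CCAAT box (CCAAT), the GC box (GGGCGG), the core of the cAMP response element (TGACGT), the AP-1 site (TGACTCA) or the E-box (CACGTG), searched on both strands. No marked matches overlap.
Ptgs1, chr3:39981169-39981418, + strand: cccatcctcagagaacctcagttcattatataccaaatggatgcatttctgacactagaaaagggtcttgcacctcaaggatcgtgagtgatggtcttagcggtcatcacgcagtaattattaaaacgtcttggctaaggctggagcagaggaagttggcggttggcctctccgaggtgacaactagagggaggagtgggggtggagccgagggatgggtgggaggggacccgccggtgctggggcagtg
Ptgs2, chr13:64713813-64714062, + strand: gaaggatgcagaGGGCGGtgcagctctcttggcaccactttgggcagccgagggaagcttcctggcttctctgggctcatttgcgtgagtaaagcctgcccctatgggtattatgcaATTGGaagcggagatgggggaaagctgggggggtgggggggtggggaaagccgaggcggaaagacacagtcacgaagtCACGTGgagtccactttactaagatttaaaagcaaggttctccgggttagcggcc
Ptges, chr3:34586988-34587237, - strand: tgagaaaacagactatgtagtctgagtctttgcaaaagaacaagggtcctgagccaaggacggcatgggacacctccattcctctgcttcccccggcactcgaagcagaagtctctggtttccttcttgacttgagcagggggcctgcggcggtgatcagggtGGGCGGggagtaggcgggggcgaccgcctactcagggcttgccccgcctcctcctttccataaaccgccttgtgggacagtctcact
The window of Ptgs1 held none of these letters. That of Ptgs2 held a GC box from base 238 to 233 before the start, a CCAAT box on the opposite strand from base 133 to 129 and an E-box from base 55 to 50. That of Ptges held a GC box from base 87 to 82. Of 33469 windows of the same length, 30.5% held the GC box, 34.0% the CCAAT box and 5.59% the E-box, while 12.9% held the TATA box, 6.95% the cAMP response element core and 4.05% the AP-1 site. The table of promoters also held Ptger2 and Ptger4, in which none of the motifs was found, and Nt5e, with matches to the GC box only. These are matches of letters, and binding was not measured.

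Intensities are given as deposited, in arbitrary units of the scanner, and ratios were taken after division by the 75th percentile of each array, which was 589 in MSCs against 774 in COS1NR and 994 in MFH1NR. Between 56.6% and 59.7% of the spots were well above background by the call of the scanner software, and none was saturated. For a probe that failed this call on 1 of the 2 arrays compared, the ratio is a bound. The error after an intensity is the software's own estimate for a spot, which covers neither cultures nor labeling. The sarcoma arrays were on the same slide and in the same scan, the MSC array on a different slide, so in the ratios to MSCs the slide and the cells cannot be told apart. Of 11 mesenchymal markers, 11 were well above background in MSCs, 8 in COS1NR and 9 in MFH1NR. At least 2-fold lower than MSCs were 9 in COS1NR, 7 in MFH1NR and 6 in both. Of all genes, 20.0% were lower by as much in COS1NR, 21.6% in MFH1NR and 12.9% in both. Well above background in MSCs only were 2 of the 11, which could not have been anything but lower. Of these 2, Eng was among the 6. The summed intensity of the 11 markers, in units of the 75th percentile, was 1066 in MSCs, and the sarcoma lines had 135 and 271. Of 14 macrophage markers with a usable probe, 13 were well above background in MSCs, and these 13 were at least 2-fold lower in both sarcoma lines. Of these, 7 were well above background in MSCs only and could not have been anything but lower. The summed intensity of the macrophage markers was 9.56 in COS1NR and 4.62 in MFH1NR against 169 in MSCs. Of the 14, 6 were well above background in COS1NR and 5 in MFH1NR. The markers Lyz2, C1qa, Mrc1 and Adgre1 failed the background call in both sarcoma lines. Of 5 osteoblast markers, 4 had a ratio in COS1NR, and all 4 were at least 2-fold lower there. In MFH1NR 2 were lower and 2 higher, where 19.4% of all genes were higher by as much. The part of the lower mesenchymal and macrophage markers in the ratios of the 9 genes was not tested. Lymphocyte, endothelial and neutrophil or mast cell markers summed to at most 0.693 on any array.

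Of the 9 genes, 5 were at least 2-fold lower than MSCs in both sarcoma lines. These were Ptgs2, Ptgis, Ptger2, Ptger4 and Nt5e. Among all 10009 genes well above background on at least 1 array, 12.9% were lower by as much in both lines. None of the 9 was at least 2-fold higher in both, against 10.8% of all genes. In COS1NR, 5 were at least 2-fold lower (20.0% of all genes) and 1, Nos2, was higher (20.7%). In MFH1NR, 6 were lower (21.6%) and none was higher (19.4%). Of the 9 genes 1, Nos2, was at least 2-fold from MSCs in opposite directions in the lines, as were 2.24% of all genes. Ptgs1 and Ptges were within 2-fold in both lines, and Ido1 was not well above background on any array, so 8 of 9 passed the filter on dim probes. Ptger4 passed it through the MSC array only, so that it could not have been anything but lower in the sarcoma lines. Both sets of ratios rest on the same MSC array. The ratios describe RNA of whole cultures, in which fewer cells of a type and less RNA per cell cannot be told apart.

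**Figure D1:**
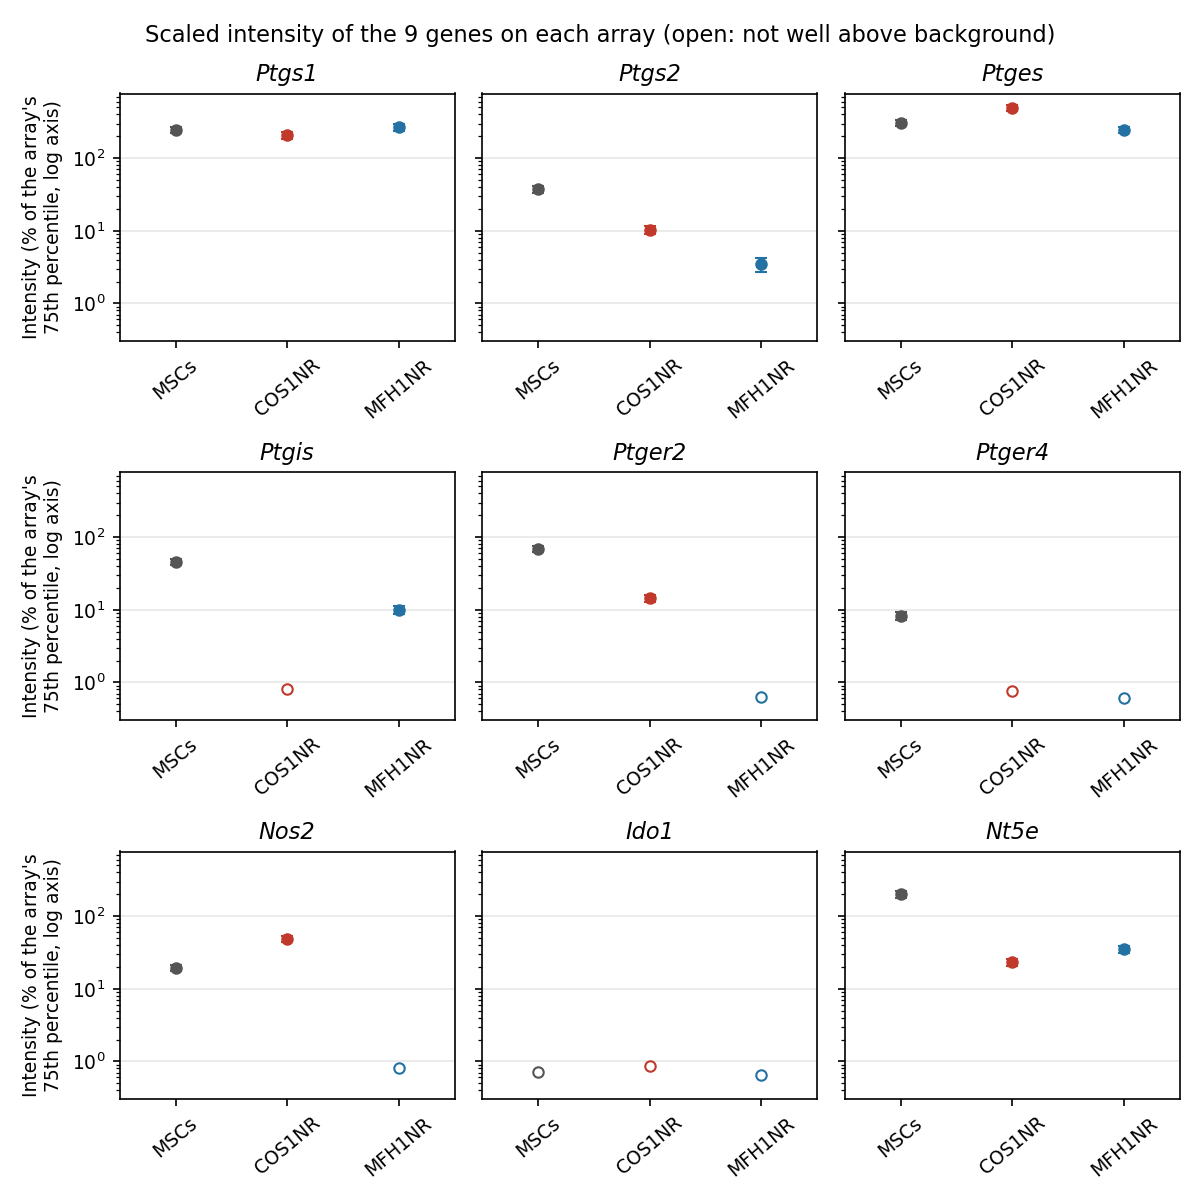
Intensity of the probe of each gene on the 3 arrays, in percent of the 75th percentile of the array (log axis). Bars are the scanner software's error of a spot, mostly no taller than the symbol, and open circles are probes not well above background. Levels can be compared between arrays within a gene but not between genes. The panels of Ptgs2, Ptgis, Ptger2, Ptger4 and Nt5e are highest in MSCs, and that of Nos2 is highest in COS1NR.

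Ptgs1, the gene of COX-1, was within 2-fold of MSCs in both lines. Its probe was printed 10 times on each array, which gives the spread within an array. It had an intensity of 1459 in MSCs, with spots from 1384 to 1526, 1599 in COS1NR, with spots from 1521 to 1706, and 2639 in MFH1NR, with spots from 2563 to 2759. Of the 10 spots, 1 was left out as an outlier in each sarcoma line. After scaling, the log2 ratio to MSCs was -0.26 in COS1NR (SE 0.022 over spots) and 0.10 in MFH1NR (SE 0.019). The software's error of each ratio was 0.20, larger than the ratio of MFH1NR, and the scaled spots of MFH1NR and MSCs overlapped. Without scaling the ratios were 0.13 and 0.85, so that the direction in COS1NR turned. Of the genes with a ratio, 37.1% had a lower one in COS1NR and 53.3% in MFH1NR, so that Ptgs1 lay near the middle of all genes.

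Ptgs2, the gene of inducible COX-2, was lower in both lines. Its single spot had an intensity of 219 ± 22.3 (MSCs), 80.2 ± 10.2 (COS1NR) and 34.3 ± 7.15 (MFH1NR). The order was MSCs, then COS1NR, then MFH1NR, and no 2 of the intensities overlapped within their errors. The log2 ratio to MSCs was -1.85 in COS1NR and -3.43 in MFH1NR, or 3.59-fold and 10.8-fold lower. Of the genes with a ratio, 11.3% had a lower one in COS1NR and 5.83% in MFH1NR. The spot of MFH1NR was dim, close to the dimmest spot called above background on that array, which had 30.1. A change set against Ptgs1 on the same array does not depend on a scaling by 1 factor per array. By this measure the log2 ratio of Ptgs2 was -1.59 in COS1NR and -3.53 in MFH1NR, the latter 11.6-fold lower. Quantile normalization gave -1.46 and -3.37, and normexp gave -0.98 and -2.22, or 4.67-fold lower in MFH1NR. Between the sarcoma lines Ptgs2 was lower in MFH1NR, with a log2 ratio of -1.59, which became -0.88 with a normexp background correction. With normexp the ratios to MSCs were -1.22 in COS1NR and -2.10 in MFH1NR, still past 2-fold.

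Ptges, which encodes the microsomal synthase that acts with COX-2, was within 2-fold of MSCs. It had an intensity of 1804 ± 180.5 in MSCs against 3827 ± 383 in COS1NR and 2461 ± 246 in MFH1NR. After scaling it was highest in COS1NR, where the log2 ratio to MSCs was 0.69, while MFH1NR had -0.31. The error of each ratio from the software's estimate was 0.20. Without scaling these ratios were 1.09 and 0.45, so that the direction in MFH1NR turned and COS1NR passed 2-fold. Set against Ptgs2 on the same array, Ptges was 5.81-fold higher in COS1NR and 8.73-fold higher in MFH1NR than in MSCs. With normexp these values were 3.75-fold and 3.53-fold, so that the order of the lines turned.

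Ptgis, which makes prostacyclin from the same prostaglandin H2, was lower in both lines. Its intensity was 267 ± 27.1 in MSCs and 98.9 ± 11.7 in MFH1NR, while in COS1NR it was not well above background, at 6.32. COS1NR was at least 11.9-fold lower, and Ptgis was 4.56-fold lower in MFH1NR with a log2 ratio of -2.19. In MFH1NR it was thus at least 2.62-fold higher than in COS1NR, a bound that was under 2-fold with normexp, at a log2 ratio of 0.90. Relative to Ptges on the same array, it was lower than in MSCs by at least 19.3-fold in COS1NR and by 3.69-fold in MFH1NR. With normexp the bound of Ptgis in COS1NR was at a log2 ratio of -2.51 instead of -3.58. Relative to Ptges it was then at least 9.19-fold lower in COS1NR and 2.52-fold lower in MFH1NR.

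Both receptors of prostaglandin E2 that raise cyclic AMP were highest in MSCs. Ptger2 had an intensity of 405 ± 40.7 in MSCs and 111 ± 12.7 in COS1NR, and in MFH1NR it was not well above background, at 6.30. Its log2 ratio was -2.26 in COS1NR, or 4.80-fold lower, and it was at least 22.7-fold lower in MFH1NR. The difference between the lines was at least 4.74-fold. These bounds hold for this scaling. That of MFH1NR to MSCs, at a log2 ratio of -4.51, became -3.75 without scaling and -3.18 with normexp, and that between the lines, at -2.24, became -1.45 with normexp. Ptger4 was dim in MSCs, at 48.5 ± 6.12, and not well above background in COS1NR, at 5.95, or in MFH1NR, at 6.11. The bound was 2.17-fold lower for COS1NR and 2.72-fold lower for MFH1NR, and no order can be given between the lines. Both bounds of Ptger4 were close to the 2-fold limit. Without scaling they were at log2 ratios of -0.72 and -0.69, and in COS1NR the bound was also just under 2-fold with quantile normalization, with median scaling (-0.96) and with normexp (-0.98).

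**Figure D2:**
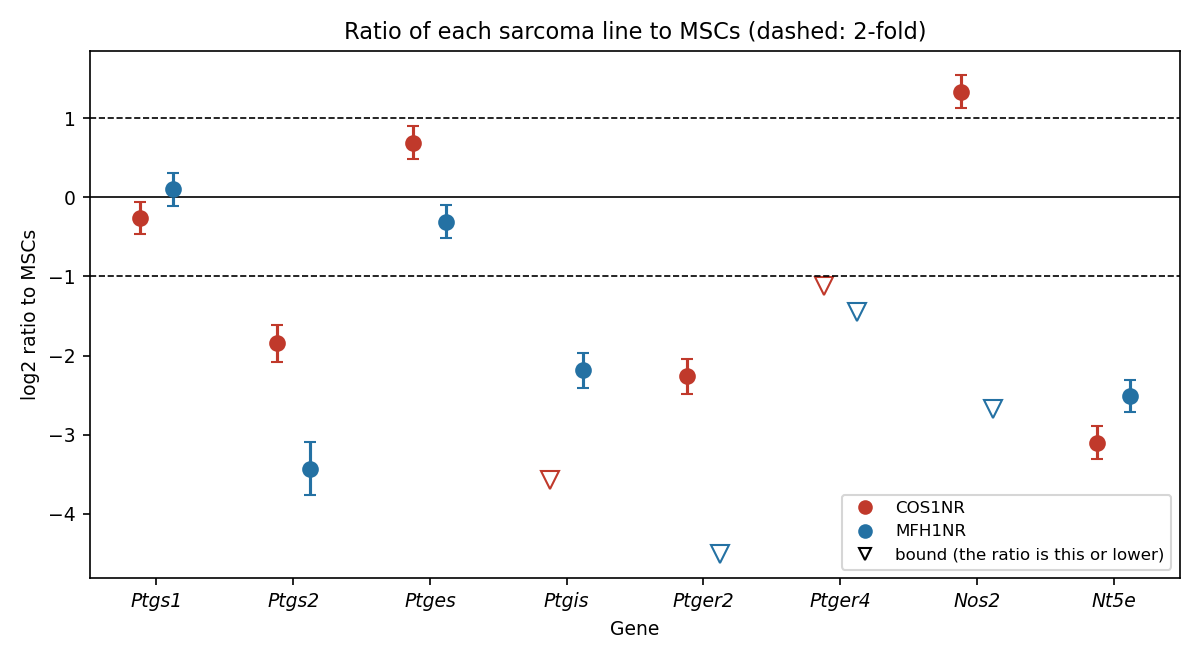
Log2 ratio of COS1NR (red) and MFH1NR (blue) to MSCs for the 8 genes well above background on at least 1 array. Bars are the error of a ratio from the software's estimate for each spot, open triangles are bounds and dashed lines mark 2-fold. Ptgs1 and Ptges lie between the dashed lines in both sarcoma lines, and Nos2 lies on opposite sides of 0.

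The other genes of prostanoid synthesis did not move together. Of 12 listed genes, 10 were well above background on at least 1 array, of which 2 were at least 2-fold lower in both lines and none was higher in both (12.9% and 10.8% of all genes). The 2 were well above background in MSCs only, so that they could not have been anything but lower. The median log2 ratio of those with a ratio was -0.22 in COS1NR and -0.77 in MFH1NR, against 0.11 and 0.02 over all genes. The 2 lower ones were Tbxas1, the thromboxane synthase, and Hpgds, the hematopoietic prostaglandin D synthase, both of which are known in macrophages and other blood cells. Tbxas1 had an intensity of 1154 in MSCs and failed the background call in both sarcoma lines, lower by at least 51.6-fold in COS1NR and by at least 64.2-fold in MFH1NR. Hpgds had 232 in MSCs and was at least 10.4-fold and at least 13.0-fold lower. The macrophage markers were lower in the same arrays, and their part in these values was not tested. Ptgds, the other prostaglandin D synthase, was dim, with 28.3 in MSCs and no call above background in either line.

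Cytosolic phospholipase A2 (Pla2g4a), which releases arachidonic acid, separated the sarcoma lines. It had 407 in MSCs and 879 in MFH1NR, a log2 ratio of 0.36, while COS1NR, at 18.3, failed the background call and was below MSCs by at least 18.2-fold. The secreted phospholipase Pla2g2a ran the other way, with 496 in COS1NR and 6.17 in MFH1NR against 137 in MSCs. Its log2 ratio was 1.46 in COS1NR, and it was at least 7.68-fold lower in MFH1NR. Ptges2, another prostaglandin E synthase, had 290.4, 1087 and 734 in MSCs, COS1NR and MFH1NR, with log2 ratios of 1.51 and 0.58. Ptges2 thus had higher ratios to MSCs than Ptges in both lines.

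Of the prostanoid receptors outside the EP2 and EP4 pair, only 3 of 6 with a usable probe were well above background on any array. The prostacyclin receptor Ptgir was 2.16-fold higher in COS1NR and 1.94-fold higher in MFH1NR, with 89.9 (MSCs), 254 (COS1NR) and 295 (MFH1NR) and log2 ratios of 1.11 and 0.96. The prostaglandin F receptor Ptgfr had log2 ratios of 0.49 for COS1NR and -2.05 for MFH1NR, and the thromboxane receptor Tbxa2r had -0.88 and 2.23. Ptger3 (EP3) was not well above background anywhere, with its highest intensity of 17.3 in MSCs. The prostacyclin synthase Ptgis and its receptor Ptgir thus lay on opposite sides of MSCs in both lines.

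Among genes of prostaglandin breakdown, Hpgd, the dehydrogenase that inactivates prostaglandin E2, had 80.7 in MSCs, 15.8 in COS1NR (not well above background) and 489.8 in MFH1NR. COS1NR was below MSCs by at least 3.61-fold, MFH1NR had a log2 ratio of 1.85, and set against Ptges on the same array it was 4.45-fold higher in MFH1NR than in MSCs. The uptake transporter Slco2a1, which carries prostaglandins into cells for breakdown, was well above background in MSCs only, at 287. It could thus only be lower, by at least 12.9-fold in COS1NR and by at least 16.1-fold in MFH1NR. The reductase Ptgr2, which acts after Hpgd, had log2 ratios of 1.48 and 1.17. In the leukotriene branch, which uses the same arachidonic acid, the lipoxygenase-activating protein Alox5ap, also well above background in MSCs only, was at least 22.0-fold and at least 27.6-fold lower, while the leukotriene A4 hydrolase Lta4h had log2 ratios of 0.27 and 0.23. The part of the lower macrophage markers in the values of Slco2a1 and Alox5ap was not tested.

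Nos2, which makes nitric oxide from arginine, separated the sarcoma lines, and its probe was also printed 10 times. Its intensity was 114 in MSCs, with spots from 99.9 to 150.3, 379 in COS1NR, with spots from 349 to 401, and 8.08 in MFH1NR, with spots from 6.18 to 21.8. The SD of the spots in log2 was 0.18 in MSCs and 0.066 in COS1NR, and the ranges of the 3 arrays did not overlap. All 10 spots were well above background in MSCs and in COS1NR and none was in MFH1NR. The log2 ratio of COS1NR to MSCs was 1.34 (SE 0.062 over spots), or 2.53-fold higher, and with normexp it was 0.97, just under 2-fold. MFH1NR was below MSCs by at least 6.41-fold and below COS1NR by at least 16.2-fold. These bounds, at log2 ratios of -2.68 and -4.02, became -1.75 and -2.72 with normexp, and the one against MSCs was -1.93 without scaling. The summed macrophage markers were lower in COS1NR than in MSCs and lowest in MFH1NR. Of the neutrophil and mast cell markers, S100a8 and Csf3r were well above background in COS1NR only, Cpa3 in MSCs only and Ngp in MFH1NR only. The part of these cells in the values of Nos2 was not tested.

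**Figure D3:**
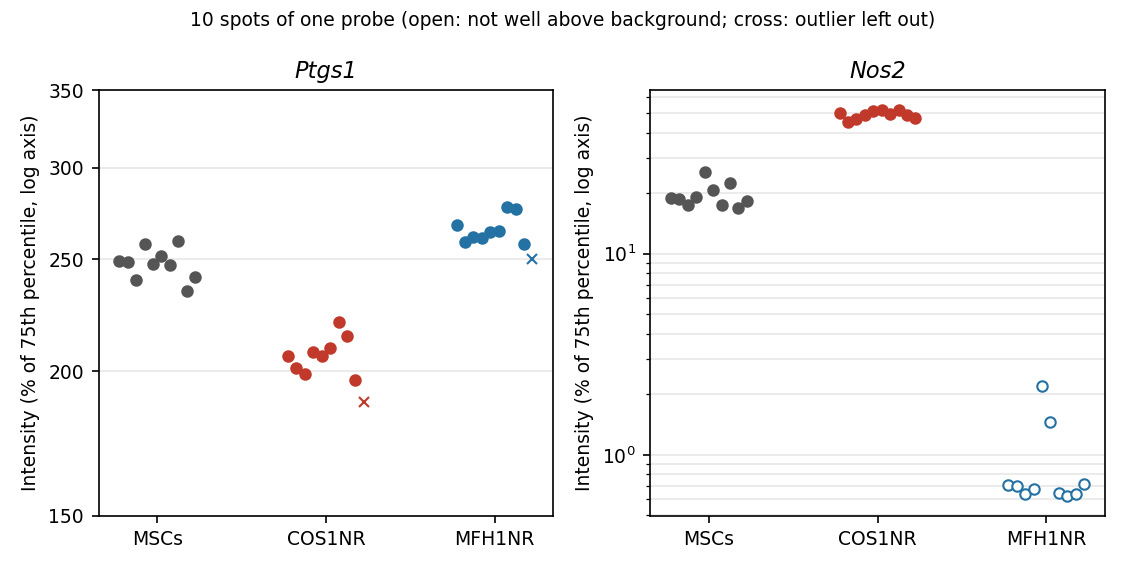
The 10 spots of the Ptgs1 probe and of the Nos2 probe on each array, in percent of the 75th percentile of the array (log axes of different range). Open circles are not well above background, and crosses are outlier spots that were left out. The spots of Ptgs1 lie close together on all arrays, and those of Nos2 form 3 separate groups, of which COS1NR is the highest.

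Of 13 other genes of arginine and nitric oxide metabolism, 11 were well above background on at least 1 array. At least 2-fold lower in both lines were 2 of them, Ass1 and Pts, and 2 were higher, Qdpr and Azin1, or 18.2% each way against 12.9% and 10.8% of all genes. Their median log2 ratio was 0.027 in COS1NR and -0.77 in MFH1NR. Ass1, which rebuilds arginine from citrulline, had 947 (MSCs), 83.4 (COS1NR) and 6.14 (MFH1NR), below MSCs by 14.9-fold and by at least 53.2-fold. The arginine transporter Slc7a2 had the same order as Nos2, with 60.9 in MSCs against 398 in COS1NR and 6.30 in MFH1NR, a log2 ratio of 2.31 in COS1NR and a value at least 3.42-fold lower in MFH1NR. Pts and Qdpr, which make and recycle the tetrahydrobiopterin cofactor of Nos2, gave COS1NR log2 ratios of -1.97 and 1.81, and MFH1NR ones of -1.21 and 1.88. Azin1, an inhibitor of antizyme in polyamine synthesis, gave 2.04 and 1.06 with its brighter probe, while its second probe gave 0.70 and 0.16. The endothelial synthase Nos3 was well above background in COS1NR only, at 39.6.

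Ido1 gave no measurable level. Its probe had an intensity of 6.59 in COS1NR and 6.55 in MFH1NR against 4.19 in MSCs, and was not well above background on any array, so neither a ratio nor an order can be given. For comparison, the dimmest spot called above background had 17.9 on the MSC array, 29.4 for COS1NR and 30.1 for MFH1NR. Of the other genes of tryptophan breakdown, Tdo2, Kynu, Kmo and Haao were not well above background on any array. The tryptophanyl-tRNA synthetase Wars1, which is induced together with Ido1 by interferon gamma, was bright on all arrays, at 2871 (MSCs), 3447 (COS1NR) and 2877 (MFH1NR). Its log2 ratios were -0.13 and -0.75.

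Nt5e, the gene of CD73 and a surface marker of MSCs, was lower in both lines. It had an intensity of 1174 ± 117 in MSCs against 179.7 ± 19.1 in COS1NR and 348 ± 35.4 in MFH1NR, and the 3 did not overlap within their errors. The log2 ratios were -3.10 in COS1NR and -2.51 in MFH1NR, and 5.57% and 8.70% of the genes with a ratio had lower ones. The lines themselves were 1.51-fold apart, with a log2 ratio of MFH1NR to COS1NR of 0.59 and an error of 0.21.

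Around CD73, of 12 listed adenosine genes, 9 were well above background on at least 1 array, of which 4 were at least 2-fold lower in both lines and none was higher in both (12.9% and 10.8% of all genes), with median log2 ratios of -0.91 in COS1NR and -1.30 in MFH1NR. Entpd1 (CD39), which supplies the AMP that CD73 converts to adenosine, had 130.2 in MSCs, the only array where it was well above background, and was at least 5.82-fold and at least 7.31-fold lower. The adenosine receptor Adora2a had 120.0 in COS1NR and 7.34 in MFH1NR against 428 in MSCs, 4.68-fold lower and at least 24.0-fold lower. Its second probe gave a log2 ratio of -2.28 in COS1NR and a weaker bound of -3.22 in MFH1NR. Enpp1, an ectoenzyme that splits ATP into AMP and pyrophosphate, had log2 ratios of -4.18 and -1.24, and the adenosine transporter Slc29a1 had -4.00 and -1.30. Another receptor, Adora2b, had 0.95 and -1.44. Adenosine deaminase (Ada), which removes adenosine, had the highest mean ratio of this list, with log2 ratios of 0.60 and 1.54, and its second probe gave 0.76 and 1.59. The summed macrophage markers, at 169 in MSCs against 9.56 and 4.62 in the lines, were lower in both lines too, and their part in the values of the adenosine genes was not tested.

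**Figure D4:**
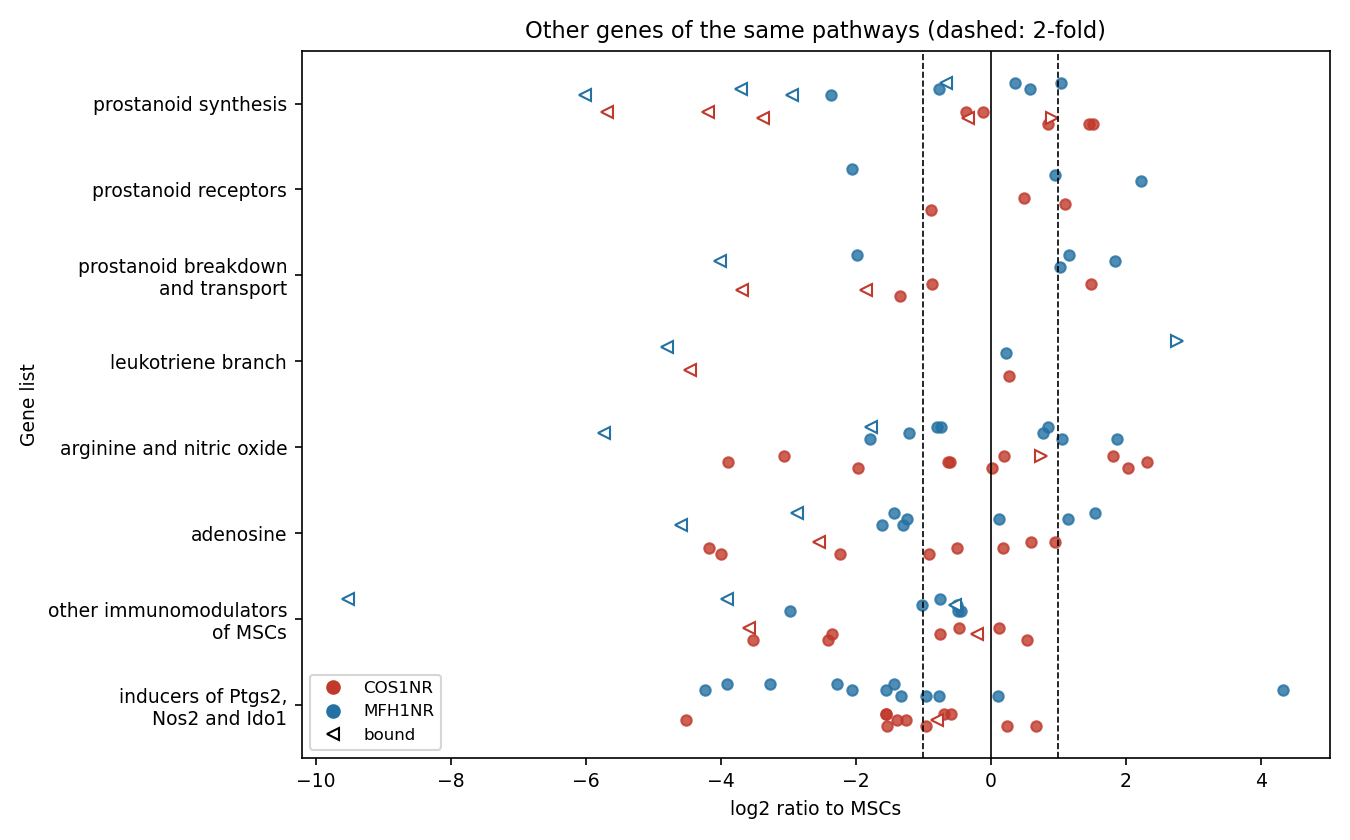
Log2 ratio to MSCs of the other genes of each pathway except tryptophan breakdown, with COS1NR in red and MFH1NR in blue. Each symbol is a gene, open triangles are bounds and dashed lines mark 2-fold. Most lists hold genes on both sides of 0.

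Of 12 genes with a usable probe that act upstream of Ptgs2, Nos2 and Ido1, all of which were well above background in MSCs, 5 were at least 2-fold lower in both lines and none was higher in both (12.9% and 10.8% of all genes). The median log2 ratio was -1.11 in COS1NR and -1.49 in MFH1NR. The 13 macrophage markers well above background in MSCs were lower in both lines as well, with sums of 169, 9.56 and 4.62 in MSCs, COS1NR and MFH1NR, and their part in the values of these upstream genes and of the other immunomodulatory genes was not tested. Irf1, a transcription factor that interferon gamma induces and that acts on Nos2 and Ido1, had 6956 (MSCs), 401 (COS1NR) and 625 (MFH1NR), 22.8-fold and 18.8-fold lower. Nfkbia, the NF-kappaB inhibitor that NF-kappaB itself induces, had log2 ratios of -1.54 and -3.90, in the order of Ptgs2. Rela, a subunit of NF-kappaB, had -1.39 and -1.55. Tlr4, the endotoxin receptor, was the exception, with 38.9 in MSCs and 1323 in MFH1NR, a log2 ratio of 4.33, and no level well above background in COS1NR. Of the other immunomodulatory genes of MSCs, 2 of 9 were at least 2-fold lower in both lines, Hmox1 and Cd200 (22.2%, against 12.9% of all genes), and none was higher in both. Cd200 was well above background in MSCs only. Their median log2 ratio was -0.75 in each line. Heme oxygenase (Hmox1) was 11.4-fold and 7.83-fold lower. The interleukin-1 receptor antagonist Il1rn had 13054 in MSCs and 12434 in COS1NR but was not well above background in MFH1NR, where it was at least 733-fold lower by its brighter probe and had a bound of -3.07 in log2 by the other. Galectin-3 (Lgals3) had log2 ratios of 0.54 and -0.43.

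Between the sarcoma lines, which shared a slide, 4 of the 9 genes were at least 2-fold apart. Ptgis was higher in MFH1NR, as were 12.4% of all genes, and Ptgs2, Ptger2 and Nos2 were lower, as were 15.1%. Ptges was at the limit, with a log2 ratio of -0.999 for MFH1NR to COS1NR. Ptgs1 and Nt5e were 1.28-fold and 1.51-fold higher in MFH1NR. Ptger4 and Ido1 were not well above background in either line.

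For some members well above background on all 3 arrays, the gene with the nearest pair of log2 ratios to MSCs was sought among 7931 genes. For Nt5e it was Dusp5, with -3.13 and -2.41 and a distance of 0.099 in log2. For Ptgs1 and Ptges, which lay in the dense middle of all genes, Ippk and Mrps11 were within 0.022 and 0.023. A likeness over 3 arrays is a description only.

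**Figure D5:**
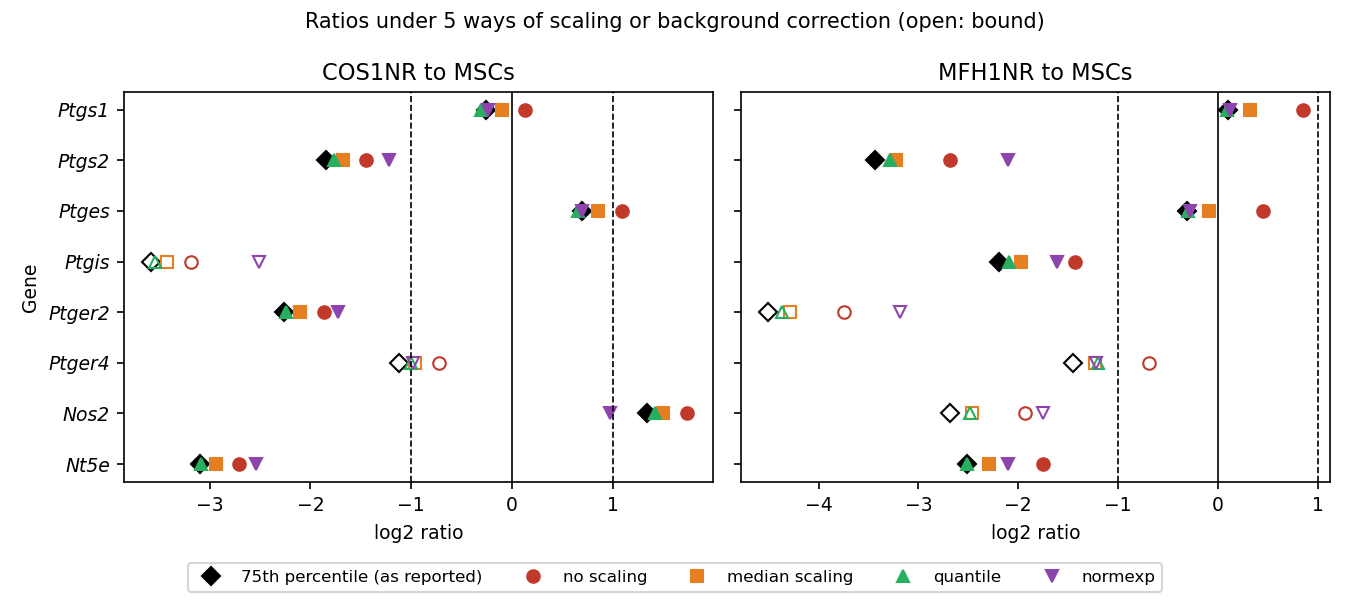
Log2 ratio to MSCs of the 8 genes under 5 ways of scaling or background correction, COS1NR on the left and MFH1NR on the right. Open symbols are bounds and dashed lines mark 2-fold. Without scaling all ratios lie to the right of those scaled by the 75th percentile, so that Ptgs1 in COS1NR and Ptges in MFH1NR cross 0, and the 5 genes lower in both lines stay left of 0.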

How the data were processed

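RNA of MSCs, COS1NR and MFH1NR was measured on 1 whole rat genome array each. Per the file headers, the authors made the processed intensity of each spot with Agilent Feature Extraction 10.5.1.1 (the processing notes name version 9.1), which subtracts background and detrends within an array but does not scale between arrays. The deposited series table held these same intensities. Outlier spots were left out, spots of a probe were averaged in log2, and each log2 value had the 75th percentile of that array subtracted. Probes were named through RefSeq accessions with a GRCr8 gene table. The array was designed on rn4, so no coordinates of probes are given, and promoter coordinates are those of GRCr8. The brightest named probe stood for a gene. For a bound, the dim value was set to itself or to the array's dimmest spot well above background, whichever was larger. The 9 members are named (some further genes of the set and its lists are not reported here), and of each pathway list the extreme ratios and the genes that share a member's product (Ptges3, Ptger1 and Ido2 had no named probe). The members and lists were chosen with earlier results of these data known. With 1 array per group no test was made, and the number of arrays limits the precision. The counting step was tested on simulated data. Alternatives were other scalings, background correction, filters, probes and a 3-fold limit. Python 3.11.15, numpy 2.4.6, pandas 2.3.3, R 4.3.3 and limma 3.58.1 were used.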

Additional observations from a re-analysis of the deposited data

Results flagged for a closer look

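In COS1NR and MFH1NR, 5 of the 71 members and pathway genes well above background on at least 1 array (7.04%) were at least 2-fold from MSCs in opposite directions, against 2.24% of all genes. The lists were chosen with earlier results known, so nothing is read from this share. The difference between the lines was not tested, since each is 1 array, and all ratios share the MSC array. Nos2 was higher in COS1NR and lower in MFH1NR, with a difference of MFH1NR minus COS1NR of -4.02 or beyond in log2. Pla2g2a and Slc7a2 had the same pattern, with differences of -4.41 and -4.09 or beyond. The second probe of Slc7a2 gave 2.24 in COS1NR and a bound of -0.69 in MFH1NR. Hpgd ran the other way, with a difference of at least 3.70, as did Ptgr1, a reductase that acts on prostaglandins and leukotriene B4, with a difference of 2.37.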

How the results depend on the processing

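Of 90 comparisons of a count with its value under an alternative, 77 stayed within 1.5 times. Some of these could not have moved. The deposited series table held the same intensities, and with 1 named probe per member the mean of all probes could not change the counts of members. The number 77 is thus no measure of stability. With only genes well above background on all 3 arrays, which takes away every bound, 4 of the 9 genes remained, of which 2 were at least 2-fold apart from MSCs in both lines, 2 in COS1NR (2 of them lower) and 2 in MFH1NR (2 lower), while 1 was apart between the lines (1 lower in MFH1NR) and 9 of 44 remaining genes of the pathway lists were lower in both lines, against 17. Under this filter 15.1% of all 7931 genes were lower in COS1NR, 16.2% in MFH1NR and 8.78% in both, and between the lines 12.1% were lower in MFH1NR and 9.68% higher. With normexp, 2 members were apart between the lines, where 12.1% of all genes were lower and 9.63% higher. At 3-fold, 10 pathway genes were lower in both lines and 1 was higher, against 3, and of all genes 8.35% were lower and 4.56% higher in both. Without scaling 5 pathway genes were higher in both (22.9% of all genes), and with no filter on dim probes 5 were (9.91%). These shares over all genes moved with the setting too, so nothing is read from the counts about the pathway genes. Without scaling, the log2 ratio of Ptgs1 in COS1NR turned to 0.13 and that of Ptges in MFH1NR to 0.45. Over the alternatives run, Nt5e lay between -3.10 and -2.54 in COS1NR and between -2.51 and -1.75 in MFH1NR, and Ptgs2 between -1.85 and -1.22 and between -3.43 and -2.10. Bounded ratios ranged more widely: Ptgis in COS1NR from -5.79 to -2.51, and in MFH1NR Ptger2 from -6.76 to -3.18, Nos2 from -4.58 to -1.75 and Ptger4 from -3.74 to -0.69. The lower end of each of these ranges is no bound. It comes from the setting that took values not well above background as measured. Leaving out scaling or scaling by the median moves all ratios of a line to MSCs by the same amount, set by the factors of the 2 arrays. The normexp correction adds 50 to every intensity, which by arithmetic draws ratios of dim probes toward 0. How much of each change with normexp comes from this was not tested. The cause of the other changes was not tested beyond the fewer genes of a stricter filter. Without scaling, the median log2 ratio of all genes moved from 0.11 to 0.52 in COS1NR and from 0.02 to 0.79 in MFH1NR, and the split of all genes at 2-fold moved from 20.7% higher and 20.0% lower to 32.5% and 14.8% in COS1NR and from 19.4% and 21.6% to 41.4% and 13.0% in MFH1NR. With median scaling these medians were 0.28 and 0.23. The normexp correction was chosen in its present form, on the median spot intensity, after the data were seen. The planned one on the mean spot intensity was not run, because the files used here hold the median only. Dim probes limit Ptgis, Ptger2, Ptger4, Nos2 and Ido1, and Ptgs2 in MFH1NR. No paired analysis was possible because each group has 1 array.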
